A study of Ovis aries with 32 samples.

Results

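The genes described here are 9 components of insulin receptor signalling, INSR, IRS1, IRS2, PIK3R1, AKT1, AKT2, FOXO1, TBC1D4 and GRB14, of the 21271 genes in the deposited table of fetal sheep adipose cells. They were found by gene name, each matched exactly 1 gene identifier, and together they have 17 annotated transcripts. The values of the transcripts were summed for each gene unless a transcript is named. All 9 passed the filter on low values (10 or more in 4 or more of the 32 libraries) and were tested. A library is named below by its group and replicate number, as in FC2.

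RNA was sequenced from preadipocytes isolated from perirenal fat of near-term singleton sheep fetuses and from mature adipocytes differentiated from such cells in culture. There were 8 groups of 4 libraries. MC and FC were preadipocytes of male and female control fetuses, and MFGR and FFGR were those of male and female growth-restricted fetuses, whereas MCD, FCD, MFGRD and FFGRD were the corresponding differentiated cells. Growth restriction (FGR) followed placental insufficiency in Columbia-Rambouillet crossbred ewes kept at raised ambient temperature during mid gestation, and the ewes of the control fetuses were kept at a normal temperature and pair-fed. All groups came from singleton pregnancies of this cross and none carried an engineered allele, and the differentiation medium is not given in the sources used here. No label ties a replicate number to an animal, so the p-values below measure the spread between these libraries.

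Insulin binds a receptor tyrosine kinase, which phosphorylates docking proteins of the IRS family. These recruit phosphoinositide 3-kinase, whose lipid product brings AKT kinases to the membrane, where they are activated. In adipocytes AKT phosphorylates TBC1D4 (also called AS160), which releases the glucose transporter GLUT4 to the cell surface, and FOXO1, which is then kept out of the nucleus. Mature fat cells are among the most insulin-responsive cells of the body, and insulin is a usual part of the media in which preadipocytes are differentiated. GRB14 is an adaptor that binds the active receptor and inhibits it.

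The normalized values of a library summed to between 9.52 and 21.22 M, with a median of 12.59 M. The number of reads behind a single value is unknown, since the values are no longer whole reads. At the highest division of a clustering of all libraries, 7 stood apart from the other 25, namely FC2, MFGR1, FFGR2, FFGR3, MCD4, MFGRD1 and FFGRD3. In these, values fell most steeply with the genomic span of a transcript. The slope of a library's centred log2 values on log10 span lay between -1.06 and -0.56 in the 7, and between -0.47 and 0.40 in the others. The labels give no batch or RNA quality for these libraries. The averaged effects of differentiation, their single transcripts, the group-wise changes of FOXO1 and PIK3R1 and the list totals are therefore also given without them.

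The labelled cell types were checked against markers. Of 14 mature adipocyte markers tested, 13 were higher in differentiated cells and none was lower, with ADIPOQ (adiponectin) at a median of 11.7 (range 0 to 216) in preadipocytes and 1197 (8.59 to 13421) in differentiated cells. Of 10 preadipocyte and fibroblast markers, 4 were lower and 1 was higher, and the preadipocyte marker DLK1 was at or near 0 in every library (at most 2.34). Markers of other cell types moved with the stage too. The summed level of smooth muscle and pericyte markers ranged from 1507 to 11038 in preadipocytes and from 219 to 2573 in differentiated cells (3 of 6 tested were lower and 1 was higher). That of adrenal cortex markers, at 3.22 to 89.8 in preadipocytes, reached 19.8 to 2052 (4 of 5 higher). Of these 4, 3 passed the filter through differentiated libraries alone, as did 4 of the 13 mature adipocyte markers that rose. Macrophage and leukocyte markers, with sums of 90.4 to 1129 in preadipocytes and 122 to 950 in differentiated cells, had 2 of 3 higher and 1 lower, and PTPRC, CSF1R, ITGAM and AIF1 were below the filter. Endothelial sums stayed low, at 11.5 to 125 in preadipocytes and 5.84 to 287 in differentiated cells (1 of 4 lower), and none of 2 mesothelial markers was called (sums 3.06 to 392 and 0.704 to 127). The part of these cells in the results below was not tested. In bulk RNA, fewer cells of a type and less RNA per cell cannot be told apart.

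With differentiation, averaged over the 4 groups (16 libraries against 16), FOXO1, PIK3R1, IRS2 and INSR rose and GRB14 fell. FOXO1 rose 4.75-fold, PIK3R1 3.78-fold, IRS2 2.67-fold and INSR 2.56-fold, and the fitted ratio for GRB14 was 0.21. The mean value of FOXO1 was 167 ± 109 (SD, n = 16) in preadipocytes and 697 ± 280 in differentiated cells, and that of PIK3R1 was 1169 ± 697 and 4704 ± 3014. IRS2 had means of 296 ± 174 and 701 ± 367, INSR of 231 ± 148 and 529 ± 314, and GRB14 of 33.2 ± 41.4 and 3.86 ± 5.78. IRS1, AKT1, AKT2 and TBC1D4 did not pass the test. A gene was called when limma's adjusted p-value (Benjamini-Hochberg over 12737 genes) was below 0.05 and the fold change above 1.5. Thus 5 of 9 members were called, against 27.2% of all genes tested, and 4 of 9 were called higher, against 12.4%, and 1 of 9 lower, against 14.8%. Of the 5, GRB14 reached a value of 10 in 10 preadipocyte libraries but in only 2 differentiated ones, so it passed the filter through the stage in which it was higher, whereas the other 8 members did so in all 16 libraries of either stage. The median log2 fold change was 0.82 over the 9 members and 0.03 over all genes. The members were chosen with earlier results of these data known, so their shares and median are a description. Without the 7 libraries standing apart the same 5 members were called.

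**Figure D1:**
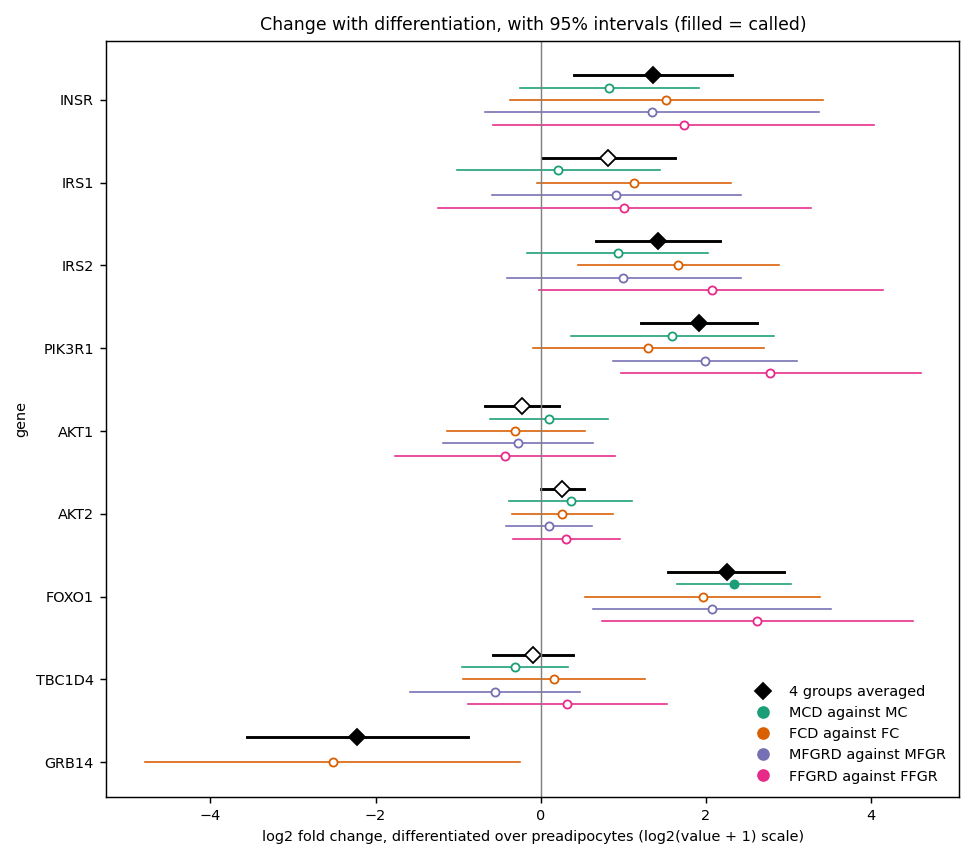
Log2 fold change of each of the 9 genes from preadipocytes to differentiated cells (x axis, log2(value + 1) scale), averaged over the 4 groups (black diamonds) and in each group (circles). Lines are 95% intervals and filled symbols passed the test. In the average FOXO1 (2.25), PIK3R1 (1.92), IRS2 (1.42) and INSR (1.36) lie to the right of 0 and GRB14 (-2.22) to the left, and in single groups only FOXO1 in MCD against MC passed.

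INSR encodes the insulin receptor (ENSOARG00020007624, chr5:14374949-14517884 of Oar_rambouillet_v1.0, to which all coordinates below refer). Its values in replicates 1 to 4 were 257, 276, 235 and 137 in MC and 625, 228, 818 and 197 in MCD. They were 317, 25.4, 292 and 266 in FC and 917, 216, 787 and 285 in FCD. In both pairs of groups the 2 highest values were those of differentiated cells, whereas the other values overlapped those of preadipocytes. The growth-restricted cells had 22.3, 269, 228 and 590 in MFGR and 224, 533, 707 and 419 in MFGRD. In FFGR the values were 388, 29.2, 91.1 and 279, and in FFGRD 1155, 811, 84.2 and 452. The lowest value of FC, MFGR, FFGR, MCD, MFGRD and FFGRD was each time that of a library standing apart. Averaged over the groups the log2 fold change was 1.36 (SE 0.47, adjusted p = 0.0251), and 7 of 16 differentiated libraries lay above the highest preadipocyte library. Without the libraries standing apart it was 0.93 (SE 0.26, adjusted p = 0.00884).

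The receptor had 2 annotated transcripts over the same span. INSR-201 was listed at 0 in 6 of 16 preadipocyte libraries and in 2 of 16 differentiated ones, with medians of 51.9 and 240. INSR-202 had medians of 145 and 299. Neither transcript was called on its own (INSR-201 log2 fold change 2.66, SE 1.10, adjusted p = 0.0836, and INSR-202 1.02, SE 0.77, adjusted p = 0.388). The share of the receptor's value given to INSR-201 ranged from 0% to 100% at either stage, so the division between them was not steady from library to library.

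The docking proteins IRS1 and IRS2 did not give the same call. IRS2 (ENSOARG00020003454, chr10:94713682-94741969) had 328, 333, 671 and 264 in MC against 733, 1789, 585 and 338 in MCD. In the females all 4 FCD libraries (700, 517, 835 and 720) lay above all 4 FC libraries (285, 64.8, 441 and 260), as for 4.95% of all genes. The values were 64.9, 471, 294 and 490 in MFGR against 333, 647, 709 and 472 in MFGRD. In FFGR they were 363, 30.5, 98.6 and 273, against 914, 893, 130 and 898 in FFGRD, where FFGRD3 was the only library below 893. IRS2 rose by a log2 fold change of 1.42 (SE 0.37, adjusted p = 0.00341), and by 1.11 (SE 0.18, adjusted p = 8.04e-05) without the libraries standing apart.

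IRS1 (ENSOARG00020021389, chr2:244297886-244484375) had 463, 329, 413 and 328 in MC and 737, 1015, 372 and 134 in MCD. Here too every FCD library (634, 477, 667 and 660) lay above every FC library (457, 84, 452 and 329). The growth-restricted cells gave 78.1, 342, 508 and 423 in MFGR and 212, 913, 765 and 491 in MFGRD, with 775, 41.7, 113 and 424 in FFGR and 545, 822, 102 and 575 in FFGRD. Apart from FCD, differentiated and preadipocyte values overlapped in each group. IRS1 changed by 0.82 on average (SE 0.39, adjusted p = 0.113), which did not pass. With the replicate number as a block in each of the 4 groups, the same change had an SE of 0.31 and an adjusted p of 0.0441 and was called. Same-numbered libraries deviated together in every pair of MC, FC and MFGR, but in 3 of 4 pairs of FFGR. With the span slope as a covariate it was 0.83 (SE 0.20, adjusted p = 0.00122). Without the libraries standing apart it was 0.56 (SE 0.16, adjusted p = 0.00924), past the p threshold but below the fold threshold of 1.5. The call for IRS1 thus rested on how the libraries were treated.

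**Figure D2:**
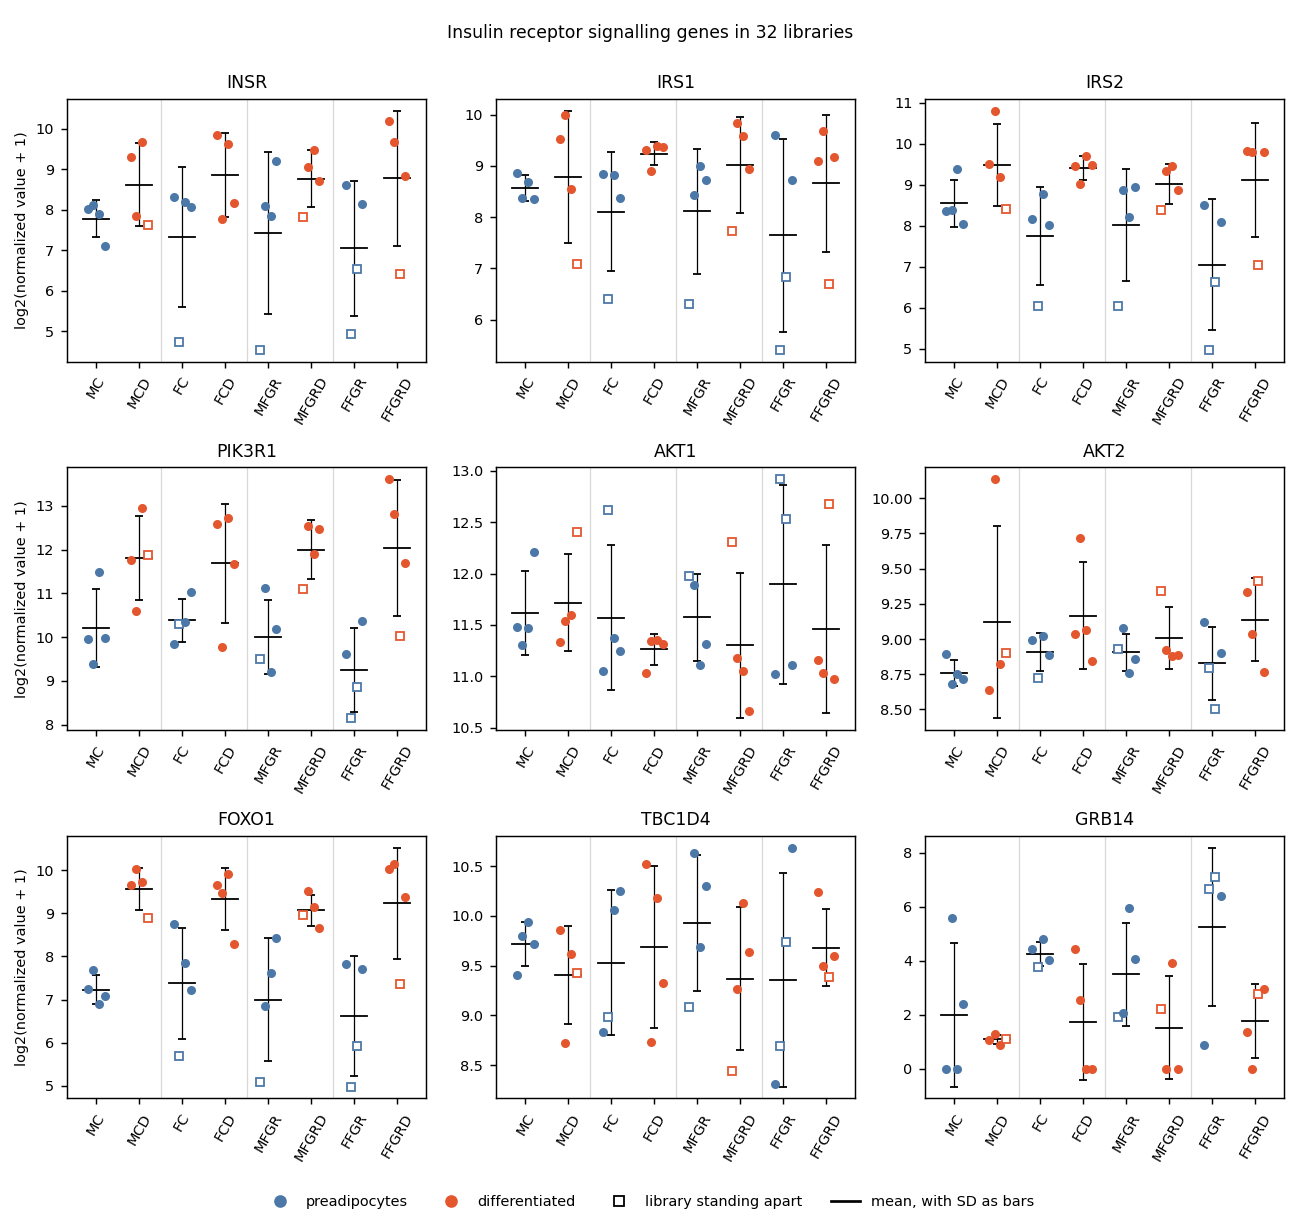
Log2(normalized value + 1) of the 9 genes (y axes) in the 4 libraries of each of 8 groups (x axes), with preadipocytes in blue and differentiated cells in red. Open squares are the 7 libraries standing apart and black bars are means with SD. FOXO1 and PIK3R1 are higher in red than in blue in each pair of groups, and open squares lie low for INSR, IRS1, IRS2 and FOXO1 but high for AKT1.

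PIK3R1 encodes the main regulatory subunits of phosphoinositide 3-kinase, which bind the phosphorylated IRS proteins (ENSOARG00020004041, chr16:11839965-11921313). Its values were 997, 670, 2878 and 1009 in MC and 3495, 1546, 7861 and 3779 in MCD. In the control females they were 921, 1256, 1308 and 2106 in FC and 6099, 870, 6764 and 3277 in FCD. A single differentiated library in each of these pairs, MCD2 and FCD2, did not exceed the highest preadipocyte library, and FCD2 lay below every FC library. MCD2 and FCD2 had the lowest span slopes (-0.471 and -0.404) of the libraries not standing apart. Both thus stay in the values given without the latter. The growth-restricted males had 725, 2226, 588 and 1172 in MFGR and 2186, 5916, 3802 and 5693 in MFGRD. The FFGR values of 781, 283, 464 and 1315 stood against 12446, 7186, 1037 and 3306 in FFGRD, where only FFGRD3 fell within the FFGR range. The averaged log2 fold change was 1.92 (SE 0.34, adjusted p = 8.02e-05), and it was also 1.92 (SE 0.36, adjusted p = 0.000316) without the libraries standing apart. Of 16 differentiated libraries, 12 lay above the highest preadipocyte library.

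The rise of PIK3R1 was clearest in its longest transcript. PIK3R1 is known to give a long form of the regulatory subunit and shorter forms from alternative starts, and the table holds PIK3R1-201, which spans 81.3 kb, and PIK3R1-202 and PIK3R1-203, which span 8.4 and 6.6 kb. PIK3R1-201 had 511, 335, 605 and 480 in MC and 2087, 1070, 5366 and 2328 in MCD. It had 428, 145, 711 and 835 in FC and 4237, 625, 4782 and 1368 in FCD. In growth-restricted males the values were 154, 563, 419 and 622 in MFGR and 1547, 4244, 2710 and 4235 in MFGRD. All 4 differentiated libraries lay above all 4 preadipocyte libraries in MC and in MFGR (as for 5.85% and 4.26% of all transcripts), and 14 of 16 differentiated libraries lay above every preadipocyte library. The FFGR libraries had 394, 58.4, 239 and 864 and the FFGRD libraries 9847, 5083, 781 and 2204, with an overlap at FFGRD3. There PIK3R1-203 did not overlap, with 203, 173, 108 and 234 in FFGR and 583, 663, 256 and 646 in FFGRD. The share of all transcripts that did so in FFGR was not counted. PIK3R1-202 had 10 of 16 differentiated libraries above every preadipocyte library and 2 below every one.

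Among single transcripts 4 of the 16 member transcripts tested were called, PIK3R1-201, FOXO1-201 and IRS2-201 as higher and GRB14-201 as lower, against 19.8% of the 19469 transcripts tested (9.02% higher and 10.8% lower). PIK3R1-201 rose by a log2 fold change of 2.74 (SE 0.39, adjusted p = 7.36e-06), 6.66-fold, and by 2.45 (SE 0.33, adjusted p = 2.8e-05) without the libraries standing apart. Without them GRB14-201 was no longer called (-2.13, SE 0.81, adjusted p = 0.0602) and INSR-201 was (2.71, SE 0.97, adjusted p = 0.045). The changes of PIK3R1-202 (0.92, SE 0.74, adjusted p = 0.423) and PIK3R1-203 (1.22, SE 0.67, adjusted p = 0.214) were not called, and whether they differ from that of PIK3R1-201 was not tested. As a description, PIK3R1-201 took 42.6% ± 17.5 (SD, n = 16) of the value of the gene in preadipocytes and 68.3% ± 8.5 in differentiated cells. PIK3R1-203 took 34.2% ± 23.4 and 16.1% ± 11.5. These shares depend on how Salmon divided reads between overlapping transcripts.

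**Figure D3:**
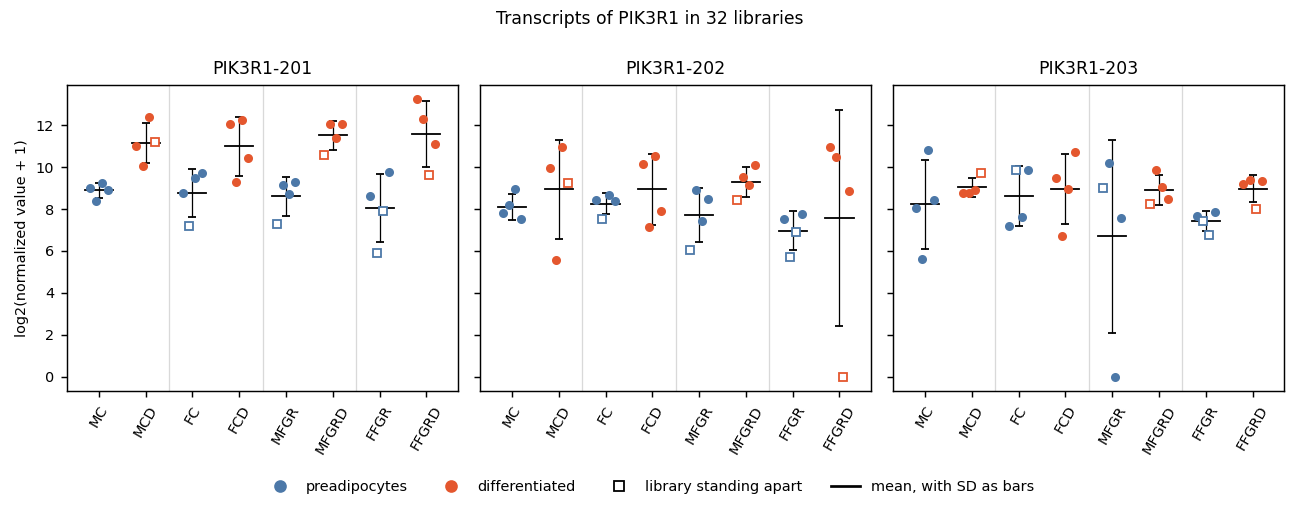
Log2(normalized value + 1) of the 3 PIK3R1 transcripts (y axis, common to the panels) in the 4 libraries of each group (x axes), with means and SD as black bars and open squares for libraries standing apart. For PIK3R1-201, 14 of 16 differentiated libraries (red) lie above every preadipocyte library (blue), against 10 for PIK3R1-202 and 0 for PIK3R1-203. The last 2 transcripts each have a library at 0.

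The kinases AKT1 and AKT2 did not pass in either direction. AKT1 (ENSOARG00020019748, chr18:69932528-69950616), the widely expressed form, ranged from 2077 to 7730 (median 2743) in preadipocytes and from 1616 to 6551 (median 2560) in differentiated cells. AKT1 changed by a log2 fold change of -0.23 (SE 0.22, adjusted p = 0.472, 95% interval -0.68 to 0.22), and -0.14 (SE 0.11) without the libraries standing apart. Its highest values were those of libraries standing apart, which had 4025 to 7730 in preadipocytes and 5067 to 6551 in differentiated cells, against 2077 to 4749 and 1616 to 3095 in the others. AKT2 (ENSOARG00020014736, chr14:53022204-53070002), the form most closely tied to glucose uptake in fat cells, was the steadiest of the 9, with 361 to 557 (median 468) in preadipocytes and 397 to 1122 (median 504) in differentiated cells. AKT2 changed by 0.26 (SE 0.13, adjusted p = 0.119, 95% interval 0.00 to 0.52), or 0.17 (SE 0.14) without the libraries standing apart, and its highest values were in MCD2 (1122) and FCD2 (842). Neither of its transcripts was called (AKT2-201 0.23, SE 0.16, and AKT2-202 0.28, SE 0.13, with adjusted p = 0.347 and 0.127).

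FOXO1, a transcription factor that AKT restrains, showed the largest rise among the 9 over all libraries, though not without those standing apart, where PIK3R1 rose by 1.92 on the log2 scale and FOXO1 by 1.88 (ENSOARG00020004101, chr10:24249161-24338544). It had 151, 206, 118 and 135 in MC and 800, 1049, 840 and 471 in MCD, so that the lowest MCD library was above the highest MC library. The values in females were 430, 50.9, 228 and 148 in FC and 808, 711, 963 and 310 in FCD. All MFGRD libraries (497, 730, 570 and 401) lay above all MFGR libraries (32.8, 115, 196 and 342). In FFGR they were 225, 30.6, 59.3 and 209, and in FFGRD 1048, 1126, 163 and 666. The stages thus did not overlap in the males (as for 7.59% of all genes in MC and 4.84% in MFGR, higher in differentiated cells) and overlapped by a single library in each female pair, FCD4 and FFGRD3. In FFGR no member had all 4 differentiated libraries above all 4 preadipocyte libraries, against 5.01% of all genes. The averaged log2 fold change was 2.25 (SE 0.34, adjusted p = 1.01e-05), and 1.88 (SE 0.21, adjusted p = 1.47e-06) without the libraries standing apart. Of 16 differentiated libraries, 13 lay above the highest preadipocyte library.

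TBC1D4, the AKT substrate that holds GLUT4 inside the cell, did not change measurably (ENSOARG00020009407, chr10:54308231-54576787). It ranged from 316 to 1644 (median 848) in preadipocytes and from 346 to 1466 (median 748) in differentiated cells. The averaged log2 fold change was -0.10 (SE 0.24, adjusted p = 0.803, 95% interval -0.58 to 0.39), and -0.15 (SE 0.26) without the libraries standing apart. Of its 5 transcripts, TBC1D4-202 was listed at 0 in every library, and the changes of the other 4 lay between -0.23 (TBC1D4-203) and 0.06 (TBC1D4-205), with none called.

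GRB14, the inhibitory adaptor, was low and fell (ENSOARG00020009236, chr2:156600617-156725422). It had 0, 47.5, 0 and 4.29 in MC and 1.12, 1.46, 0.849 and 1.16 in MCD. In females it had 20.6, 12.8, 26.8 and 15.5 in FC and 20.5, 4.81, 0 and 0 in FCD. The MFGR values of 2.78, 3.24, 61.6 and 15.8 compared with 3.61, 0, 14 and 0 in MFGRD. Values near 0 occurred at both stages, but those above 20.5 were found in preadipocytes alone. FFGR held the highest values (0.854, 99.2, 137 and 83), and FFGRD had 1.59, 0, 5.88 and 6.75. Its averaged log2 fold change was -2.22 (SE 0.65, adjusted p = 0.00913), and -2.13 (SE 0.79, adjusted p = 0.0385) without the libraries standing apart. Only 12 of 32 libraries reached a value of 10, 10 of them preadipocyte and 2 differentiated. GRB14 thus passed the filter only through the stage in which it was higher. Its fold and p-value are therefore a description rather than a separate test of the fall. The size of the fall also depends on the pseudocount. With a pseudocount of 0.1 in place of 1 the fitted ratio was 0.125 in place of 0.21 (log2 SE 1.02, adjusted p = 0.0239), and under a stricter filter on low values the gene was not tested.

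The libraries standing apart had low values of several members at both stages. In the 4 such preadipocyte libraries INSR was 22.3 to 91.1, against 137 to 590 in the other 12, IRS1 was 41.7 to 113 against 328 to 775, IRS2 30.5 to 98.6 against 260 to 671, and FOXO1 30.6 to 59.3 against 115 to 430. These ranges do not overlap. In the 3 such differentiated libraries IRS1 was 102 to 212 against 372 to 1015 in the other 13, and IRS2 130 to 338 against 472 to 1789, whereas INSR (84.2 to 224 against 216 to 1155) and FOXO1 (163 to 497 against 310 to 1126) overlapped. AKT1 went the other way. With the span slope as a covariate the averaged log2 fold changes were much the same, 1.38 for INSR (SE 0.18, adjusted p = 5.74e-07), 1.43 for IRS2 (SE 0.21, adjusted p = 3.18e-06) and 2.26 for FOXO1 (SE 0.22, adjusted p = 4.22e-09).

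**Figure D4:**
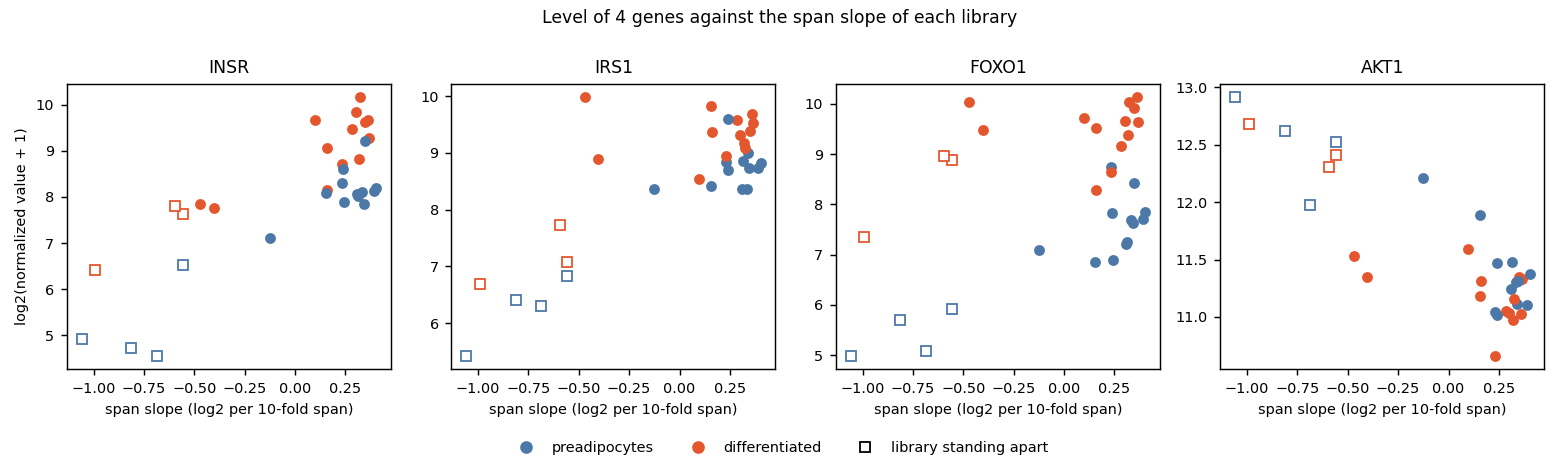
Log2(normalized value + 1) of INSR, IRS1, FOXO1 and AKT1 (y axes) against the span slope of each of the 32 libraries (x axes, log2 units per 10-fold genomic span). Blue is preadipocytes, red is differentiated cells and open squares are the 7 libraries with slopes of -1.06 to -0.56. INSR, IRS1 and FOXO1 are low and AKT1 is high at the left, and the highest red values exceed the highest blue ones for INSR (1155 against 590) and FOXO1 (1126 against 430).

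Taken group by group, with 4 libraries against 4, FOXO1 in MCD against MC was the single member called. Its log2 fold change there was 2.34 (SE 0.31, adjusted p = 0.0032), among 7.53% of 11605 genes called (3.33% higher and 4.21% lower). No member was called in FCD against FC (0.43% of 11634 genes, 0.181% higher and 0.249% lower), MFGRD against MFGR (3.38% of 11624, 1.22% and 2.16%) or FFGRD against FFGR (2.67% of 11599, 0.914% and 1.76%) with limma, although 3, 2 and 2 members, respectively, had an unadjusted p below 0.05. FOXO1 gave 1.96 (SE 0.63, adjusted p = 0.235) in FC, 2.07 (SE 0.64, adjusted p = 0.137) in MFGR and 2.62 (SE 0.83, adjusted p = 0.156) in FFGR. PIK3R1 gave 1.59 (SE 0.55, adjusted p = 0.114) in MC, 1.30 (SE 0.62, adjusted p = 0.433) in FC, 1.99 (SE 0.49, adjusted p = 0.0679) in MFGR and 2.78 (SE 0.80, adjusted p = 0.118) in FFGR. Without the libraries standing apart FOXO1 gave 2.57, 1.40, 1.47 and 2.09 and PIK3R1 1.56, 1.27, 2.13 and 2.71 in the same order of groups, and FOXO1 in MC was again the single call. The estimates of FOXO1, PIK3R1, IRS2 and INSR were above 0 in all 4 groups. So were those of IRS1 (0.21 to 1.13) and AKT2 (0.10 to 0.36), which did not pass in the average. The share of all genes with such estimates was not counted.

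With the replicate number as a block PIK3R1 was called in MC (SE 0.23, adjusted p = 0.00373) and in MFGR (SE 0.24, adjusted p = 0.00608), and FOXO1 in MC remained called. PIK3R1-201 was called without the block in both, at 2.28 (SE 0.46, adjusted p = 0.0393) in MC and 2.92 (SE 0.52, adjusted p = 0.0392) in MFGR. In FFGR, PIK3R1 was called when FFGRD3 was left out (3.45, SE 0.63, adjusted p = 0.043). Leaving out each library in turn gave no other call of a member in FC, MFGR or FFGR, and FOXO1 in MC was called each time. The shares of all genes or transcripts called in these fits are not given here. The calls of this paragraph therefore do not set the members apart from other genes. GRB14 was tested in FC alone among the single groups (-2.52, SE 1.01, adjusted p = 0.337), since in the others it did not pass the filter.

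Whether growth restriction alters these genes was asked within each stage, 8 libraries against 8. No member was called in preadipocytes or in differentiated cells, and neither was any gene at all (0% of 12138 and 0% of 12069), with 306 and 87 genes at an unadjusted limma p below 0.05 but no member among them. In preadipocytes the estimates ran from -0.67 for PIK3R1 (SE 0.39, adjusted p = 0.833, 95% interval -1.49 to 0.15) to 1.25 for GRB14 (SE 1.01, adjusted p = 0.833, 95% interval -0.91 to 3.42). The narrowest interval was that of AKT2, -0.25 to 0.32. In differentiated cells they ran from -0.38 for IRS2 (95% interval -1.27 to 0.51) to 0.27 for PIK3R1 (-0.88 to 1.43), and GRB14 did not pass the filter there. Of the 4 preadipocyte libraries standing apart 3 were growth-restricted (MFGR1, FFGR2 and FFGR3), and the estimates in preadipocytes moved with them. IRS2 was at -0.61 (SE 0.57) with all libraries, -0.13 (SE 0.23) in the fit that includes the span slope and 0.05 (SE 0.26) without those libraries. INSR was at -0.32 (SE 0.72), 0.31 (SE 0.24) and 0.39 (SE 0.26), respectively, so that its sign turned. Without them PIK3R1 was at -0.23 (SE 0.42) and GRB14 at 0.63 (SE 1.22).

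The comparison of males with females gave no call either. Among all genes 0% of 12138 in preadipocytes and 0% of 12069 in differentiated cells were called (470 and 94 at an unadjusted p below 0.05, no member among them). In preadipocytes GRB14 was lower in males by the estimate (-2.01, SE 1.01, unadjusted p = 0.0669, adjusted p = 0.844), the lowest p of the 9, and IRS2 was at 0.88 (SE 0.57, adjusted p = 0.844). Without the libraries standing apart these were -1.01 (SE 1.22) and 0.30 (SE 0.26). The estimates in differentiated cells lay between -0.30 for TBC1D4 and 0.15 for AKT1. Within a stage there are 6 pairs of groups, and all of them overlapped for each member. Over all genes too, 1.43% of the gene and group pairs in preadipocytes and 0.943% in differentiated cells did not overlap.

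The response to differentiation itself was compared between groups as an interaction over all 32 libraries. Growth-restricted against control cells gave no called gene (0% of 12737, with 132 at an unadjusted p below 0.05), and so did MFGR against the 3 other groups (0% of 12737, with 74). No member was among those with an unadjusted p below 0.05. PIK3R1 had the lowest p of the members in the former, with a response larger by 0.94 in growth-restricted cells (SE 0.69, adjusted p = 0.988, 95% interval -0.47 to 2.36). TBC1D4 had it in the latter, with -0.61 (SE 0.54, adjusted p = 1, 95% interval -1.73 to 0.50). For FOXO1 the 95% intervals of the differences were -1.21 to 1.61 and -1.86 to 1.40. Neither comparison set MC alone against the other groups. That FOXO1 was called in MC alone does not by itself show a response particular to MC, and this was not tested.

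ADIPOQ varied widely among the 16 differentiated libraries, and each member was related to it on the log2 scale, with 9 relations adjusted together. No Pearson correlation passed (r from -0.44 for IRS1 to 0.58 for AKT1). AKT1 had r = 0.58 (permutation p = 0.0197, adjusted 0.177) and Spearman's rho = 0.68 (permutation p = 0.00479, adjusted 0.0431). Its r was 0.76 without the 2 libraries farthest from the median of ADIPOQ and 0.43 without the 3 libraries standing apart. FOXO1 had r = 0.21 (permutation p = 0.432) and rho = 0.28 (permutation p = 0.295). Among the 13 libraries that did not stand apart r was 0.85 (permutation p = 0.0003, adjusted 0.0027) and rho 0.81 (permutation p = 0.00153, adjusted 0.0138), and r was 0.78 without the 2 farthest. The relation of INSR moved more, with r = -0.05 over 16 libraries (permutation p = 0.848), 0.47 over 13 (permutation p = 0.104, adjusted 0.421) and, over 16 libraries in residuals on the span slope, 0.89 (permutation p = 1e-05, the smallest that 100000 resamples can give, adjusted 9e-05). In those residuals rho was 0.79 (permutation p = 0.00044) and r without the 2 farthest was again 0.89, while PIK3R1 and FOXO1 both had r = 0.60 (adjusted p = 0.0437 by permutation). Their rho was 0.64 and 0.54 (adjusted 0.0307 and 0.0696 by permutation), and AKT1 had r = 0.44 and rho = 0.66 (adjusted 0.195 and 0.0301 by permutation), so r and rho did not pass for the same genes. The 3 libraries standing apart are too few for a value of their own. These relations therefore rest on which libraries enter and on whether the span slope is removed.

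The other genes of the pathway were taken from 8 lists, of which 115 genes were tested in the averaged comparison. Leaving out the 9 members, 34 of 106 rose and 12 fell, against 12.4% and 14.8% of all genes, with a median log2 fold change of 0.26 (0.03 over all genes). Of these, 4 of the 34 passed the filter through differentiated libraries alone and 2 of the 12 through preadipocyte libraries alone (290 of 1575 and 342 of 1891 over all genes). Without the libraries standing apart 28 of 105 rose and 11 fell, with a median of 0.12, against 11.5% and 15.9% of all genes and a median of 0.00. The lists were chosen with earlier results of these data known, so these shares and medians are a description and not a test of the pathway. Most lists held rises and falls side by side. Values are fitted log2 fold changes, with levels as medians of 16 libraries.

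Of 13 receptor and docking proteins, 5 rose and 1 fell (median 0.31). Among those that rose were GAB1, SH2B2, INSR and IRS2. SHC1, the adaptor that leads to the RAS pathway, fell from 2147 to 1175 (-0.81, SE 0.12). IGF1R was not called (0.07, adjusted p = 0.91). Of 13 genes of phosphoinositide 3-kinase and its lipids, 4 rose and 1 fell (median 0.34). PIK3CD, a catalytic subunit best known from leukocytes, rose from 3.85 to 32.8, with PIK3R1, PIK3R3 and PIK3CB. The lipid phosphatase INPP5D fell from 11.8 to 5.4. Of these calls, 1 rise and the 1 fall passed the filter only through the stage in which the gene was higher. No fold is therefore given for PIK3CD and INPP5D, which were low. Without the libraries standing apart 2 rose and 1 fell.

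Of 15 genes of AKT and its regulators, 4 rose and 2 fell (median 0.26), and 2 and 1 without the libraries standing apart. THEM4, which binds AKT, rose from 38 to 114 (1.53, SE 0.30), and the pseudokinase TRIB2 from 60.3 to 173 (1.39, SE 0.30). Its relative TRIB3, an inhibitor of AKT, fell from 251 to 80.5 (-1.46, SE 0.39), as did MLST8, a subunit of the mTOR complexes (-0.84, SE 0.28). The mTORC1 branch had 4 of 13 genes higher and none lower (median 0.24), and 3 and 0 without the libraries standing apart. EIF4EBP2, a repressor of translation that mTORC1 inactivates, rose from 220 to 468 (1.37, SE 0.31), with EIF4EBP1 and RPS6KB1. DEPTOR, an inhibitor of mTOR, went from a median of 1.25 (at most 7.72) to 20. It passed the filter through differentiated libraries alone, so no fold is given for it.

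Of 10 genes of glycogen and metabolic targets, 2 rose and 1 fell (median 0.25), and 2 and 2 without the libraries standing apart. PDE3B, the phosphodiesterase through which insulin restrains lipolysis, rose from 99.4 to 1307 (3.91, SE 0.38), and PFKFB3, which promotes glycolysis, from 149 to 983 (2.14, SE 0.41). PPP1R3B, a glycogen-targeting phosphatase subunit, fell from 460 to 172 (-1.37, SE 0.24). In the list for GLUT4 traffic, 3 of 15 rose and 3 fell (median -0.03), and 2 of 14 and 3 without the libraries standing apart. SLC2A4, which encodes GLUT4, was listed at 0 to 2.55 in preadipocytes and at 0 to 85.8 (median 5.44) in differentiated cells. This gene and TRARG1 reached a value of 10 in 6 and 9 differentiated libraries and in no preadipocyte library, so that they passed the filter only where they were higher, and no fold or p is given for them. TRARG1, which regulates GLUT4 traffic, went from at most 0.682 to a median of 14.4 (range 0 to 204). SORT1 (sortilin) fell from 1253 to 611 (-1.19, SE 0.18), and the motor protein MYO1C from 2327 to 1157 (-1.13, SE 0.13).

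Genes on the list of inhibitors of the receptor and IRS proteins moved most often, with 6 of 16 higher and 5 lower (median 0.31). Without the libraries standing apart 6 were higher and 3 lower. CISH, a cytokine-induced suppressor, rose from 11.3 to 61.6 (2.43, SE 0.33), and SOCS2 of the same family from 38.7 to 89.2 (1.53, SE 0.34). The tyrosine phosphatase PTPRE fell from 14.2 to 0.967, with GRB14, STARD10, SOCS3 and PTPN2, while PTPN1, PTPRF, SOCS6 and ENPP1 rose. Of the 5 falls, 2 passed the filter through preadipocyte libraries alone, GRB14 among them, and no fold is given for PTPRE, which was low. STARD10 was on this list but is not an established inhibitor of the receptor. The FOXO factors and FOXO1 target genes had 10 of 20 higher and none lower (median 1.00), and 10 and 1 without the libraries standing apart (median 0.72). PDK4, a kinase that shuts down pyruvate oxidation, rose from 11.1 to 480 (5.87, SE 0.59), and PNPLA2, the triglyceride lipase of adipocytes, from 139 to 746 (2.48, SE 0.39), with FOXO1, FOXO4, TXNIP, KLF15, SESN1, CAT, PPARGC1A and CITED2. Many genes of this list have other known inducers in adipocytes, and FOXO1 activity was not measured.

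**Figure D5:**
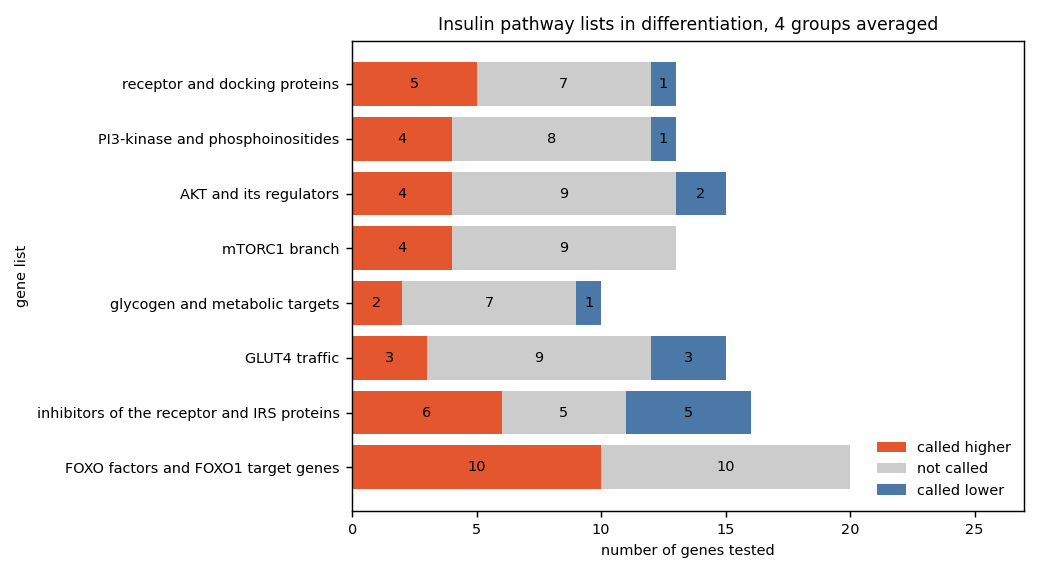
Number of genes (x axis) of each of 8 insulin pathway lists (y axis) called higher (red), not called (grey) or called lower (blue) in differentiated cells, averaged over the 4 groups. The FOXO list has 10 of 20 genes higher and none lower, and the list of inhibitors has 6 higher and 5 lower of 16.

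The genes whose log2 values ran most alike with each member over the 32 libraries were named, among 10618 genes, as a description. INSR ran with ZSWIM6 and CBL (both r = 0.95), and CBL is itself a ubiquitin ligase of receptor tyrosine kinases. IRS1 ran with ETV3 (0.96) and CAND1 (0.95), and IRS2 with ZNF281 and PPP1R10 (both 0.94). AKT1 ran with NDUFB9 (0.95) and PRKAR1A (0.94), FOXO1 with DLC1 (0.94) and POLG (0.92), and PIK3R1 with SLC8B1 and RAB11FIP3 (both 0.90). AKT2 (CSNK1D and TXNDC11, both 0.81), TBC1D4 (UBTF 0.79, EIF2AK4 0.76) and GRB14 (GALM 0.77, CTNNAL1 0.76) had weaker partners. These correlations share the stage and the span slope of the libraries.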

How the data were processed

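Per the labels and the study's methods, the authors dropped reads of mean Phred quality under 34 (FastQC 0.11.9 in the submitters' processing notes), estimated transcript abundance by Salmon with Ensembl's Oar_rambouillet_v1.0 models and normalized the estimates by DESeq2. The deposited signal is this normalized value, not whole reads and not per length, so that levels are compared within a gene only. The labels' extraction protocol describes adipose tissue, whereas they name the samples as cells. The authors' group means, fold changes and p-values were not used.

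Values were summed per gene and fitted as log2(value + 1) with limma 3.58.1 in R 4.3.3 (empirical Bayes trend, group means), for genes reaching 10 in 4 or more of the libraries fitted. Tested on simulated data of the averaged comparison (12484 genes), the fit recovered 98.5% of 200 genes changed by 3 on the log2 scale, with 11 false calls. For MCD against MC (11391 genes) it recovered 93.5%, with 17 false calls. The simulated noise was independent between libraries, and smaller changes, such as the averaged ones of the members, were not simulated. The changed genes were drawn from genes with high mean values alone, so the recovery does not cover low genes such as GRB14. ADIPOQ relations used 100000 two-sided permutations (numpy 2.4.6). The members and lists were chosen with earlier results of these data known. Named were the members, the 2 genes most alike each, and up to 2 rises and 2 falls a list. The remaining called genes of the lists, and IGF1R, were named after their values were seen. The values of 1 list gene are not reported here. Same-numbered libraries deviated together in MC (r 0.16 to 0.61), FC (0.30 to 0.51) and MFGR (0.39 to 0.67), but in 3 of 4 pairs in FFGR (-0.40 to 0.56). Alternatives were other pseudocounts, scalings, filters, covariates, library weights and left-out libraries.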

Additional observations from a re-analysis of the deposited data

Results flagged for a closer look

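Each member was examined for a library far from the other 3 in each of the 8 groups, on log2(value + 1). Of these 72 sets 7 had such a library, and chance alone marks about 1 in 20. Of the 7, 4 were libraries standing apart by their span slope. INSR was 25.4 in FC2, where the next lowest library had 266. IRS2 was 130 in FFGRD3 (next 893), and AKT1 was 6551 in that library (next 2288). AKT2 was 646 in MFGRD1 (next 484). The other 3 were IRS1 in FCD2 (477, next 634), AKT1 in FCD1 (2095, next 2546) and GRB14 in FFGR1, at 0.854 where the other FFGR libraries had at least 83. No member had a growth restriction or sex effect that ran without overlap in opposite directions in the 2 strata compared.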

How the results depend on the processing

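In the averaged comparison 5 members were called, and 4 to 6 under the alternatives. Leaving out each of the 32 libraries kept the 5 called, with log2 fold changes of 2.09 to 2.40 for FOXO1, 1.79 to 2.08 for PIK3R1, 1.24 to 1.59 for IRS2, 1.12 to 1.55 for INSR and -2.59 to -1.92 for GRB14, and called IRS1 in 2 of 32. TBC1D4 ranged from -0.18 to 0.01, the latter without FFGR4. Library weights raised the transcripts called from 4 to 7. The replicate block gave 2 members in MC and 1 in MFGR, and, apart from IRS1 in the average, changed no other call of a member. With the span slope as a covariate the counts were 2 in MC, 1 in FC, 3 in MFGR and 4 in FFGR, with library weights 2, 4, 2 and 6 (the last with AKT1 called lower, -1.11, and 3 fits of the weights not fully converged), and with the block and slope together (chosen after seeing the data) 2 in MC, 5 in MFGR and 2 in FFGR. Single transcripts gave 2 in MC and 1 in MFGR, and a joint fit of all 8 groups 2 in FFGR. Left-out libraries gave 0 to 1 in FFGR (1 without FFGRD3). The shares of all genes and transcripts called under these alternatives are not given here. The counts therefore cannot show a gain particular to the members, and the cause of these gains was not tested. For growth restriction, sex and the differences in response 0 members were called under every alternative, and of 47 member values of these comparisons not given singly or given as the ends of a range, 39 changed sign under some alternative. For growth restriction in preadipocytes IRS2 turned to 0.05 without the libraries standing apart. INSR turned to 0.39 without them and to 0.31 with the span slope, alone or with the block, and ranged from -0.75 to 0.16 with libraries left out (0.16 without MFGR1, 0.03 without FFGR2). By Pearson's r ADIPOQ was related to 0 members, to 1 (FOXO1) without the libraries standing apart, to 3 (INSR, PIK3R1 and FOXO1) in residuals on the span slope, and to 0 to 1 with libraries left out (AKT1 without FCD4). Depth limits GRB14, at or near 0 in most differentiated libraries.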
